A study of Mus musculus with 10 samples.

Results

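The transcripts of 10 intercalated disc and connexin genes, Gja1, Gja5, Cdh2, Ctnna3, Dsp, Dsg2, Dsc2, Pkp2, Jup and Tjp1, were followed in LV (left ventricle) tissue from 5 mice with nAAC and 5 with sham surgery. The genes were chosen by name from a table of 55401 genes, and all 10 were found, with 1 row each in every library. In nAAC mice the ascending aorta had been constricted by surgery in the newborn, and sham mice had undergone the sham operation. All 10 mice were WT and were sampled at 4 weeks of age, had been housed and suckled with their mothers, and came from a C57BL/6 colony in which both sexes were distributed over the groups at random. RNA was taken from whole LV tissue, so that every value is a sum over cardiomyocytes and other cells.

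The intercalated disc is the specialized contact at the ends of cardiomyocytes. Its adherens junctions, built on N-cadherin, tie the actin filaments of neighboring cells together. Its desmosomes, built on desmoglein and desmocollin, anchor the intermediate filaments through plakoglobin, plakophilin and desmoplakin. Its gap junctions, built of connexins, pass current from cell to cell. Variants of the desmosomal genes are a known cause of arrhythmogenic cardiomyopathy, and a loss or sideways shift of connexin 43 is a well-known feature of diseased ventricle.

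Values are the FPKM the authors deposited, that is, fragments scaled to transcript length and to the size of the library, so that levels of different genes can be compared per length. Group differences are log2 FCs of log2(FPKM + 1), nAAC against sham, from limma with Benjamini-Hochberg adjustment over the 11867 genes whose mean FPKM reached 1. Passing means an adjusted p below 0.05, and DEGs have in addition an absolute log2 FC above 1. All 10 members were abundant enough to be tested. Of all genes tested 31.7% passed, 27.1% as higher and 4.60% as lower in nAAC mice, and the median log2 FC was 0.22. Median-ratio scaling between libraries moved that median to -0.0008, so a log2 FC of 0 in deposited FPKM was below that of the typical gene.

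Between 11182 and 12455 genes per library reached an FPKM of 1, and mitochondrial genes took from 32.8% to 49.8% of the TPM. The number of fragments per library is not part of the values used, so the error of each value rests on the variation among mice. Sham replicate 4 stood apart, at -45.2 on the second principal component against -15.1 to 21.1 for the other libraries. Its long transcripts were low, with a median log2 difference from the other sham mice of -0.38 for 2464 genes with transcripts over 5000 bases and 0.19 for 9396 genes with shorter ones. Dsp, Tjp1 and Dsg2 have transcripts over that length, and results are given below with and without this mouse where they rest on it. All 12 cardiomyocyte markers, Myh6, Tnnt2 and Actn2 among them, were present in every library. Their summed FPKM was 13487 to 21796 in the nAAC group and 16919 to 31803 in the sham group. Actn2 passed as higher (log2 FC 0.67), and Tnni3, Pln and Atp2a2 passed as lower (-0.82, -0.86 and -0.87). That is 1 and 3 of 12, against 27.1% and 4.60% of all genes tested. The top of the sham sums came from replicate 4, where Tnnt2 was at 5959 FPKM, the highest of all mice. The log2 FC of Tnnt2 was -0.08 with that mouse and 0.15 without it (limma adjusted p = 0.839 and 0.585). In such bulk samples fewer cells of a type and less RNA per cell cannot be told apart.

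Dsg2, which encodes desmoglein 2, the desmoglein of cardiac desmosomes, was the member that passed, and it fell. Its mean was 8.15 ± 1.24 FPKM in nAAC mice and 15.7 ± 3.04 in sham mice (SD, n = 5 each), so that the mean fell by 48.1%. The other 9 members did not pass, and none of the 10 was a DEG, against 5.91% of all genes tested, or 0.893% for DEGs lower in nAAC mice. Among the other 9, Pkp2 and Cdh2 came closest, with a change of the mean of 25.2% and -15.8% in nAAC mice. The 1 of 10 that passed is below the 31.7% of all genes that passed in either direction, while 4.60% of all genes passed as lower. At an unadjusted p below 0.05 in limma there were 3 members, and the share of all genes at that limit was not computed. Of the 10 log2 FCs 6 were below 0, as were 23.4% of those of all genes tested. The median log2 FC of the 10 was -0.02, which is -0.24 relative to that of all genes tested.

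**Figure D1:**
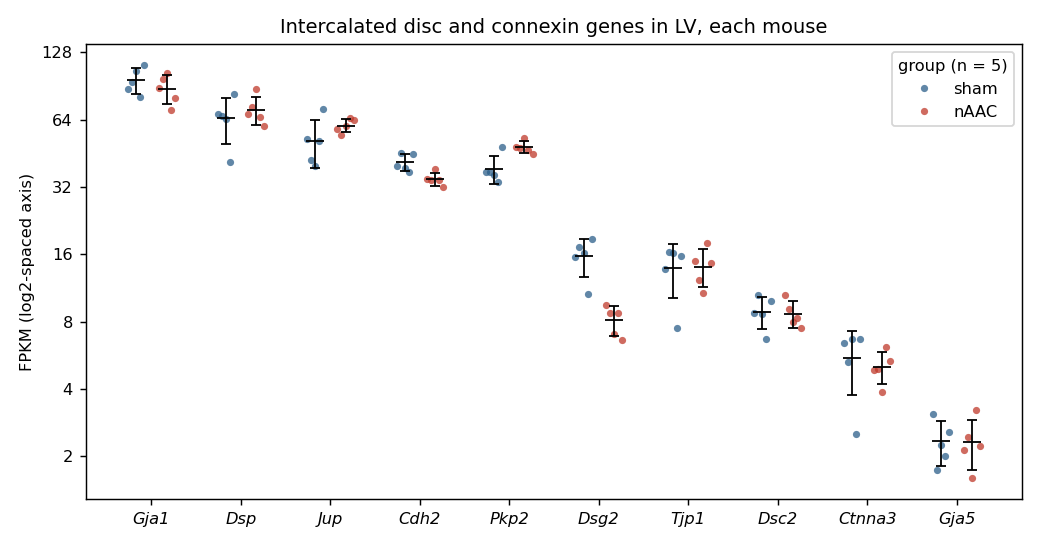
FPKM of the 10 genes in each of 5 sham (blue) and 5 nAAC (red) mice, on an axis with log2 spacing, with bars for the mean ± SD. The genes span from about 2 FPKM for Gja5 to about 96 for Gja1, and Dsg2 is the gene whose groups do not overlap.

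The order of the levels was much the same in both groups. By mean FPKM per length, Gja1, Dsp and Jup came first in that order in each, and Ctnna3 and Gja5 came last. Gja1 was above each of the other 9 members in all 10 mice. Neighbors with overlapping ranges were not separable, as with Dsp and Jup, where Dsp was the higher in 8 of 10 mice. Pkp2 exceeded Cdh2 in 5 of 5 nAAC mice and in 1 of 5 sham mice. Dsg2 exceeded Tjp1 in 4 of 5 sham mice and in 0 of 5 nAAC mice. The summed FPKM of the 10 genes was 340.5 ± 21.5 in nAAC mice and 338.9 ± 50.0 in sham mice (SD, n = 5 each), so the total overlapped while its makeup differed.

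The desmosomal cadherins Dsg2 and Dsc2 lie in the same gene cluster on chromosome 18 of GRCm38, Dsg2 (ENSMUSG00000044393) from 20558074 to 20604521 on the plus strand and Dsc2 (ENSMUSG00000024331) from 20030633 to 20059554 on the minus strand. Their proteins pair across the gap between cells. Dsg2 was at 9.52, 8.76, 7.03, 8.77 and 6.66 FPKM in nAAC replicates 1 to 5. In sham replicates 1 to 5 it was at 15.5, 17.4, 16.2, 10.7 and 18.7 FPKM. Every nAAC mouse was thus below every sham mouse, and the lowest sham value belonged to replicate 4. Groups failed to overlap in this direction for 3.46% of all genes tested, and in the opposite one, where no member was found, for 18.9%.

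The log2 FC of Dsg2 was -0.86 (standard error 0.15, 95% interval -1.19 to -0.53, adjusted p = 0.00103 from limma). A two-sided exact permutation test gave p = 0.0079, the smallest that 5 mice against 5 allow. By log2 FC it ranked 161 from the lowest among 11867 genes. Without sham replicate 4 the log2 FC was -0.98, and after median-ratio scaling it was -1.11, past the limit for a DEG. Centered on the cardiomyocyte markers of each library it was -0.76 (limma adjusted p = 0.00483). Those markers differed between the groups themselves, 1 passing as higher and 3 as lower, so that value is not a level per cardiomyocyte. With Xist as a covariate, a stand-in for the sex of the mice, the log2 FC of Dsg2 was -0.80. The limma adjusted p was then 0.0124, the largest of all alternatives tried. The antisense gene Gm16090 shares 330 exonic bases with Dsg2, and its mean was 0.024 FPKM.

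Dsc2, the desmocollin of the heart, did not follow Dsg2. It was at 10.5, 9.17, 8.01, 8.34 and 7.47 FPKM in nAAC replicates 1 to 5 and at 8.72, 10.5, 8.70, 6.67 and 9.86 in sham replicates 1 to 5. The ranges overlapped almost fully. Its log2 FC was -0.02 with a 95% interval from -0.31 to 0.26 (limma adjusted p = 0.909).

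Because a ratio within a library does not depend on scaling between libraries, 8 ratios between paired junction genes were also compared. The Dsc2 to Dsg2 ratio had a mean log2 value of 0.10 ± 0.11 in nAAC mice and -0.81 ± 0.11 in sham mice (SD, n = 5 each). All nAAC values, from -0.07 to 0.19, were above all sham values, from -0.92 to -0.68. The difference of 0.91 (standard error 0.07) was far larger than the spread between mice, and sham replicate 4, at -0.68, lay with the other sham mice. The two-sided exact permutation p was 0.0079, and 0.0635 after adjustment over the 8 ratios, which is the smallest adjusted value a lone ratio can reach here. Expressed as a share, Dsg2 made up 63.7% ± 1.70 of the summed FPKM of Dsg2 and Dsc2 in sham mice and 48.3% ± 1.85 in nAAC mice (SD, n = 5 each).

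**Figure D2:**
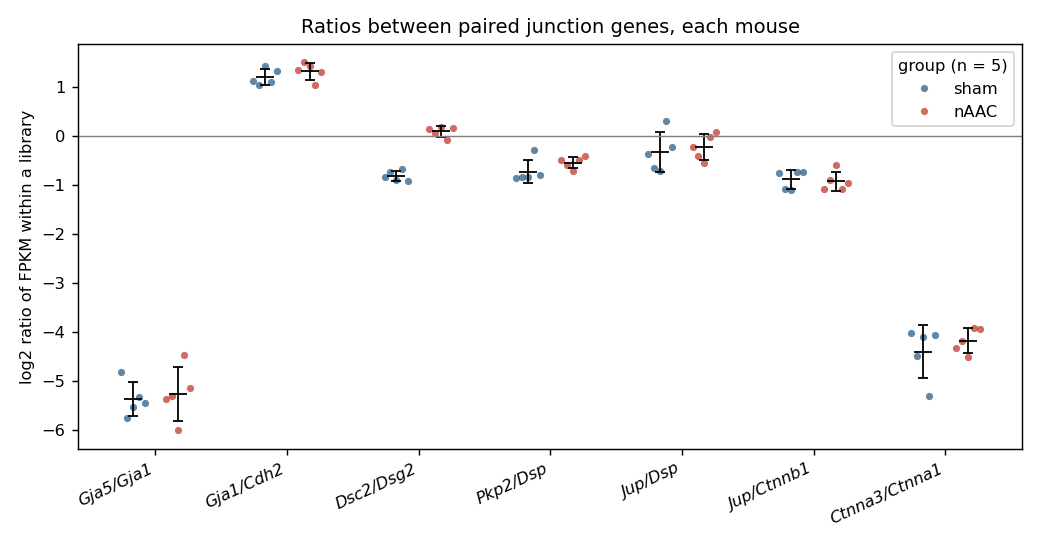
Log2 ratio of the FPKM of paired junction genes within each library, for 5 sham (blue) and 5 nAAC (red) mice, with bars for the mean ± SD. The groups are apart for Dsc2/Dsg2, near -0.81 in sham and 0.10 in nAAC mice, and overlap for the other ratios shown.

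The desmosomal plaque genes showed no member that passed. Pkp2 (ENSMUSG00000041957; chromosome 16, 16213318 to 16272712, plus strand) encodes plakophilin 2, which links the cadherins to desmoplakin. It was at 48.4, 48.0, 53.2, 46.9 and 45.2 FPKM in nAAC replicates 1 to 5. In sham replicates 1 to 5 it was at 37.4, 37.4, 36.1, 33.8 and 48.4 FPKM. Replicate 5 was the sham mouse that reached into the nAAC range, and the other 4 were below it. The log2 FC was 0.33 (standard error 0.12, 95% interval 0.06 to 0.59), with an adjusted p of 0.0577 from limma, just short of the threshold. Without sham replicate 5 the log2 FC was 0.41 and passed (limma adjusted p = 0.0127). After median-ratio scaling it was 0.05 (limma adjusted p = 0.797).

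Jup (ENSMUSG00000001552; chromosome 11, 100368958 to 100397763, minus strand) encodes plakoglobin, which is shared by desmosomes and adherens junctions. It was between 54.7 and 64.8 FPKM in the nAAC group and between 39.8 and 71.6 in the sham group, with both the lowest and the highest value of all mice in the sham group. Its log2 FC was 0.25 (95% interval -0.08 to 0.59, limma adjusted p = 0.229). Without sham replicate 5, the highest, it was 0.38 and passed (limma adjusted p = 0.0389), and after median-ratio scaling it was -0.02. Dsp (ENSMUSG00000054889; chromosome 13, 38151294 to 38198577, plus strand) encodes desmoplakin, which binds desmin. Its nAAC values were between 59.9 and 87.4 FPKM. The sham values went from 41.3, in replicate 4, up to 83.7. Its log2 FC was 0.15 (95% interval -0.24 to 0.53, limma adjusted p = 0.543) and -0.0034 without sham replicate 4. Summed over the 5 desmosomal members the level was 196.3 ± 12.0 FPKM in nAAC mice and 179.6 ± 32.7 in sham mice (SD, n = 5 each). Dsg2 contributed 8.75% ± 1.10 of that sum in sham mice and 4.17% ± 0.68 in nAAC mice (SD, n = 5 each), without overlap between the groups.

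In the ratios of plaque genes the groups overlapped. Pkp2 to Dsp differed by 0.18 on the log2 scale (two-sided exact permutation p = 0.175) and Jup to Dsp by 0.11 (exact permutation p = 0.635). Sham replicate 4 had the highest value of both ratios, and it was also the library in which Dsp was lowest. Jup to Ctnnb1, its paralog beta-catenin, differed by -0.04 (exact permutation p = 0.667).

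Cdh2 (ENSMUSG00000024304; chromosome 18, 16588877 to 16809246, minus strand) encodes N-cadherin, the transmembrane protein of the adherens junction. It was at 34.7, 34.2, 38.4, 34.4 and 32.1 FPKM in nAAC replicates 1 to 5 and at 39.9, 45.5, 38.8, 37.4 and 44.8 in sham replicates 1 to 5. The groups overlapped only through nAAC replicate 3, which lay above sham replicate 4. The log2 FC was -0.24 (standard error 0.11, 95% interval -0.48 to -0.0018), and the gene did not pass over all genes (limma adjusted p = 0.113), with a two-sided exact permutation p of 0.0159. The call depended on the scaling. After median-ratio scaling, under which 12.1% of all genes passed as lower, Cdh2 passed at a log2 FC of -0.51 (limma adjusted p = 0.00503), while in TPM its log2 FC was -0.07 (limma adjusted p = 0.646).

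Ctnna3 (ENSMUSG00000060843; chromosome 10, 63430098 to 65003667, plus strand) encodes alpha-T-catenin, the catenin of the heart that joins cadherin complexes to actin and also binds plakophilin 2. It was at 4.87, 4.94, 3.90, 6.15 and 5.36 FPKM in nAAC replicates 1 to 5. In sham replicates 1 to 5 it was at 6.41, 5.31, 6.68, 2.52 and 6.73 FPKM, with replicate 4 the lowest of all mice. The log2 FC was -0.07 (95% interval -0.50 to 0.37, limma adjusted p = 0.822), and -0.28 (limma adjusted p = 0.0933) without sham replicate 4. Its ratio to Ctnna1, the widely expressed alpha-E-catenin, was 0.055 in nAAC mice and 0.047 in sham mice as geometric means. The log2 difference between groups of 0.22 was within the spread (two-sided exact permutation p = 0.5).

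Tjp1 (ENSMUSG00000030516; chromosome 7, 65296165 to 65527781, minus strand) encodes ZO-1, a scaffold that binds connexin 43 at the edge of gap junction plaques. Its values ran from 10.8 to 17.9 FPKM in nAAC mice. In sham mice they ran from 13.8 to 16.5 FPKM with the exception of replicate 4, at 7.51. The log2 FC was 0.04 (95% interval -0.39 to 0.48, limma adjusted p = 0.888), and -0.15 without that mouse.

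**Figure D3:**
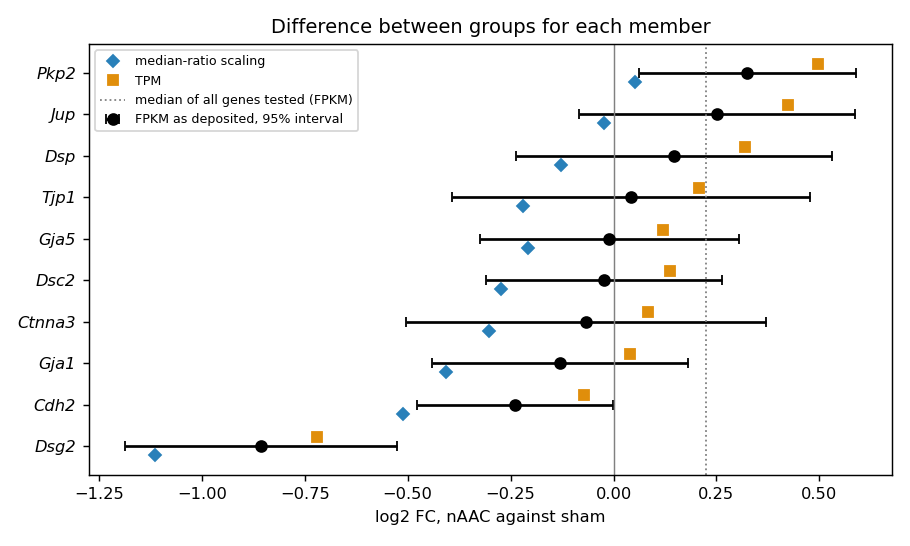
Log2 FC of each gene, nAAC against sham, in deposited FPKM (black, with the 95% interval from limma), after median-ratio scaling (blue) and in TPM (orange); the dotted line is the median of all genes tested, 0.22. Dsg2 and Cdh2 lie below 0 and Pkp2 above 0 on all 3 scales, and the other genes change side of 0 with the scaling.

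Gja1 (ENSMUSG00000050953; chromosome 10, 56377330 to 56402513, plus strand) encodes connexin 43, the main connexin of working ventricular myocardium. Gja5 (ENSMUSG00000057123; chromosome 3, 96904693 to 97077416, plus strand) encodes connexin 40, which is found in atrial muscle, the ventricular conduction system and arterial endothelium. RefSeq promoter entries of build GRCm38.p6 matched 6 of the 10 members, Gja1, Gja5, Ctnna3, Dsp, Jup and Tjp1. The 250 bases before the RefSeq start of the connexin pair are shown, because these genes had the highest and the lowest level of all 10 in the same libraries. Capitals mark matches on either strand to 6 short motifs. The TATA box was searched as TATAAA and the GC box as GGGCGG. The GATA motif was searched as AGATAA, and the TEAD motif was read as GGAATG. For AP-1 the letters were TGANTCA, and the core of the AHR site was searched as GCGTG. No pair of matches overlaps. The first region is chr10:56377050-56377299 and the second chr3:97032152-97032401, both on the plus strand. The second lies inside the Gja5 coordinates given above, so the RefSeq start used for Gja5 is not the start of that gene model.
Gja1: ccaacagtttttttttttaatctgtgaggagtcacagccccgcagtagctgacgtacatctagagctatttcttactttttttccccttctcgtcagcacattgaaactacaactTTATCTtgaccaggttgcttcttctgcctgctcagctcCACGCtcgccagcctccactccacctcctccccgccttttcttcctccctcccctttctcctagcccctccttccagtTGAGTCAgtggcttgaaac
Gja5: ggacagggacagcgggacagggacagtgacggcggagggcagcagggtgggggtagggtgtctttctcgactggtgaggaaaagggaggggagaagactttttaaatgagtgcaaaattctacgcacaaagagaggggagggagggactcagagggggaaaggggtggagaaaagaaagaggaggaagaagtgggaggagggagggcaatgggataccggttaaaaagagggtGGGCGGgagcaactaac

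The Gja1 window holds 1 match each to the GATA, AP-1 and AHR core letters, which occur in 9.99%, 6.75% and 28.2% of the 32851 RefSeq windows of that length. The Gja5 window holds 1 GC box match, found in 32.7% of the windows. Of their bases 50.0% and 56.4% are G or C, against a median of 52.4%. These are matches of letters alone, and binding was not measured here.

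Neither connexin passed. Gja1 was at 88.4, 97.3, 103, 71.0 and 79.7 FPKM in nAAC replicates 1 to 5 and at 87.7, 94.2, 105, 81.0 and 113 in sham replicates 1 to 5. The ranges overlapped widely. The log2 FC was -0.13 (standard error 0.14, 95% interval -0.44 to 0.18, limma adjusted p = 0.506), and -0.41 (limma adjusted p = 0.0733) after median-ratio scaling. Its ratio to Cdh2, with means of 1.33 and 1.22 on the log2 scale, did not pass either (two-sided exact permutation p = 0.349).

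Gja5 was at 2.14, 2.43, 1.60, 3.21 and 2.23 FPKM in nAAC replicates 1 to 5 and at 3.11, 1.74, 2.25, 2.01 and 2.58 in sham replicates 1 to 5. The log2 FC was -0.01 (95% interval -0.32 to 0.30, limma adjusted p = 0.964), at a low level. It made up 2.68% ± 1.03 of the summed connexin pair in nAAC mice and 2.40% ± 0.62 in sham mice (SD, n = 5 each). The reverse-strand gene Gpr89, at a mean of 2.84 FPKM, shares 165 exonic bases with it, and the use of strand was not given in the sources used here, so their reads may not be fully separated.

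Markers of the cells that carry connexin 40 varied beside it. The summed FPKM of 6 atrial markers, of which 5 were tested with 1 passing in each direction, was 16.8 to 257 in the nAAC group and 14.3 to 58.3 in the sham group. The defining marker Myl7 was highest in nAAC replicate 3, at 79.8 FPKM, the library with the lowest Gja5. In the sham group, by contrast, Myl7 was highest in replicate 1, at 22.3 FPKM, which also had the highest sham Gja5, at 3.11. Of 8 markers of the ventricular conduction system 3 were tested, and Etv1 passed as lower. The sum of all 8 was 14.6 to 22.9 FPKM in the nAAC group and 23.1 to 47.6 in the sham group, mostly through Irx3 and Kcne1. Irx3 was highest in sham replicates 4 and 5, at 24.5 FPKM in the former, and between 7.14 and 9.55 in the other 8 mice. The defining markers Hcn4 and Cntn2, too low to be tested in limma, were at means of 0.565 and 0.347 FPKM in nAAC mice and 1.23 and 0.991 in sham mice, without overlap (two-sided exact permutation p = 0.0079 for each). Of the 5 markers not tested in limma, 4 were lower in nAAC mice without overlap. All 5 had means over all mice of at most 0.90 FPKM, and Cpne5 and Scn10a had sham means of 0.166 and 0.190. No share of such genes was computed over genes too low to be tested. Of 8 arterial endothelial markers 7 were tested and 2 passed as higher. The part of these cells in the Gja5 values was not tested.

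Of 87 other genes of cell junctions and the disc, 49 were tested, and 17 passed, 13 as higher and 4 as lower in nAAC mice. That is a share near the 31.7% of all genes. The balance of directions turned with the scaling, since after median-ratio scaling 7 passed as higher and 10 as lower. Their median log2 FC was 0.20, also near the 0.22 of all genes.

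Among other connexin genes and the pannexin genes, listed together, 3 of 21 were tested. Gja3, the connexin 46 gene, fell from 4.51 ± 0.93 to 2.70 ± 0.08 FPKM (SD, n = 5 each), without overlap between the groups (log2 FC -0.56, limma adjusted p = 0.00395). Gja4, the endothelial connexin 37 gene, was higher in nAAC mice at a log2 FC of 0.59 (limma adjusted p = 0.0244). It did not pass after median-ratio scaling, at 0.35 (limma adjusted p = 0.136), nor in 5 of 10 fits that left out 1 mouse. Gja4 was also among the arterial endothelial markers counted above. Gjc1, the connexin 45 gene, had a log2 FC of -0.06 (limma adjusted p = 0.691). After median-ratio scaling it passed as lower (log2 FC -0.32, limma adjusted p = 0.0265). The other 18 had means over all mice of at most 0.88 FPKM and were not tested in limma. Among them Panx1, the pannexin 1 gene, singled out after its values were seen, was at 1.51 ± 0.22 FPKM in nAAC mice and 0.247 ± 0.037 in sham mice (SD, n = 5 each), without overlap (two-sided exact permutation p = 0.0079).

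Of 17 other adherens junction genes 11 were tested, with 1 passing in each direction. Vcl, which encodes vinculin, rose from 14.0 ± 4.46 to 22.9 ± 2.91 FPKM (SD, n = 5 each; log2 FC 0.73, limma adjusted p = 0.0169), though at 0.46 it did not pass after median-ratio scaling (limma adjusted p = 0.128). Without sham replicate 4, the lowest of all mice at 7.13 FPKM, the log2 FC of Vcl was 0.52 (limma adjusted p = 0.00885). Ctnnal1, an alpha-catulin gene, had a log2 FC of -0.64 (limma adjusted p = 5.40e-04). Ctnna1 was at 90.6 ± 5.77 FPKM in nAAC mice and 110.6 ± 7.93 in sham mice (SD, n = 5 each), also without overlap, at a log2 FC of -0.29 and a limma adjusted p of 0.0716. It passed as lower after median-ratio scaling (log2 FC -0.56, limma adjusted p = 0.00457) and without sham replicate 4 (-0.32, limma adjusted p = 0.0286). Ctnnb1 had a log2 FC of 0.30 (limma adjusted p = 0.145).

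Of 15 other desmosome and intermediate filament genes 7 were tested, 6 passed, all as higher, and 4 were DEGs. Of all genes tested 27.1% passed as higher and 5.91% were DEGs in either direction. The 4 DEGs were the filament and linker genes Des, Vim, Plec and Synm. Pkp4, the plakophilin 4 gene, did not pass (log2 FC 0.06, limma adjusted p = 0.758). Des, which encodes desmin, the muscle filament that desmoplakin anchors, rose from 364 ± 131 to 897 ± 155 FPKM (SD, n = 5 each; log2 FC 1.36, limma adjusted p = 8.18e-04). Vim, the vimentin gene of fibroblasts and other mesenchymal cells, had a log2 FC of 1.18. Plec and Synm, which encode the filament linker plectin and the filament protein synemin, had log2 FCs of 1.09 and 1.05. Without sham replicate 4 Plec was at 0.99, below the limit for a DEG. Dst, the dystonin gene, had a log2 FC of 0.87 and was short of the threshold after median-ratio scaling (0.60, limma adjusted p = 0.0507). Without sham replicate 4, the lowest of all mice at 8.74 FPKM, the log2 FC of Dst was 0.67 (limma adjusted p = 4.14e-04). Perp, a desmosomal membrane protein gene, had a log2 FC of 0.44, and 0.17 after median-ratio scaling (limma adjusted p = 0.448). On that scale 4 of the 7 genes passed as higher, against 13.2% of all genes. The median log2 FC of the 7 genes was 1.05. The other 8 genes of the list were too low to be tested in limma. Among them Ppl, singled out after its values were seen, was lower in nAAC mice. It was at 0.314 to 0.413 FPKM in nAAC mice and 0.678 to 0.890 in sham mice, without overlap (two-sided exact permutation p = 0.0079). In the rest of these 8 genes the groups overlapped. Of 8 fibroblast markers 4 passed as higher, against 27.1% of all genes tested. After median-ratio scaling 2 passed as higher, against 13.2% of all genes. Their sums were from 898 to 1324 FPKM in nAAC and from 636 to 895 in sham mice. The part of fibroblasts in the values of the 7 genes was not tested.

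Of 17 other scaffold and tight junction genes 11 were tested, with 1 passing as higher and 0 as lower, and 4 had an unadjusted p below 0.05 in limma. After median-ratio scaling 0 passed as higher and 1 as lower. All 17 further membrane and scaffold genes of the disc were tested, and 4 passed as higher and 2 as lower, against 3 higher and 5 lower after median-ratio scaling. Nrap, a disc and actin-anchoring protein gene, rose from 45.7 ± 11.9 to 132 ± 10.1 FPKM (SD, n = 5 each; log2 FC 1.54, limma adjusted p = 1.23e-05). Sptan1, the alpha-spectrin gene, and Svil, the supervillin gene, had log2 FCs of 0.83 and 0.53. Both were lowest in sham replicate 4. Without that mouse they were at 0.68 and 0.33 (limma adjusted p = 0.00138 and 0.0253). Svil passed narrowly (limma adjusted p = 0.0493), and at 0.25 it did not pass after median-ratio scaling (limma adjusted p = 0.394), nor in 8 of 10 fits that left out 1 mouse. Kcnj2, the inward rectifier channel gene, fell from 7.86 ± 2.14 to 3.33 ± 0.47 FPKM (SD, n = 5 each; log2 FC -1.01, limma adjusted p = 3.65e-04). Tmem65, a disc protein known to bind connexin 43, had a log2 FC of -0.55 (limma adjusted p = 0.00808). The groups did not overlap in 8 of the 17 genes, against 22.3% of all genes tested.

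**Figure D4:**
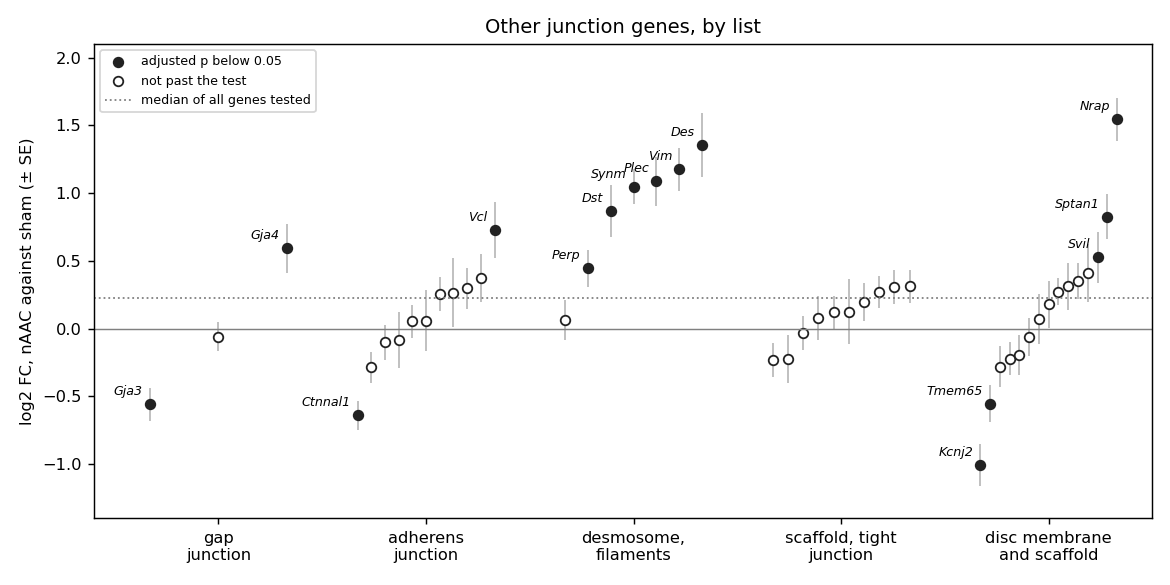
Log2 FC (± SE from limma) of tested junction genes outside the 10 members, by list, with filled points for genes at an adjusted p below 0.05. The desmosome and filament genes all lie above 0, though Pkp4 lies below the dotted median of all genes tested. The other lists spread to both sides of that median.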

How the data were processed

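RNA of the LV of 5 nAAC and 5 sham mice was profiled, with 1 table of 55401 genes per library. For every gene the authors deposited 3 normalized values and no read counts. The deposited FPKM was scaled by the authors for transcript length and library depth, and the deposited TPM also to a fixed sum per library. The deposited coverage was not used for any result. The submitters' processing notes name the build mm10. The aligner, the quantification tool and the use of strand were not given in the sources used here. The coordinates of all 10 members were those of GENCODE M21 (GRCm38).

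Groups were taken from the sample titles. Rows sharing a gene ID were summed. FPKM was converted to log2(FPKM + 1), genes whose mean FPKM reached 1 were kept, and nAAC was compared with sham in limma 3.58.1 (R 4.3.3) with an empirical Bayes trend and Benjamini-Hochberg adjustment over all 11867 genes tested. No pairing or covariate was used. Single values and log2 ratios were compared by two-sided exact permutation tests. The alternatives were other scalings (median ratio, upper quartile, TPM, no mitochondrial genes, cardiomyocyte markers), no filter, the replicate number as a block, a pseudocount of 0.1, Xist or Myl7 as a covariate, loess removal of GC content and transcript length trends (GENCODE M21, 11860 genes), an adjusted p below 0.01, and leaving out each mouse. The fit was also tested on simulated data. Genes outside the 10 members were named if they were the paralogs in the ratios or among the 5 smallest p values per direction of a list that passed. Gjc1, Panx1, Perp, Pkp4, Ppl and single cell type markers were added after their values were seen. Of the genes this rule names, and of the 8 ratios, some are not reported here. The members and lists were chosen with earlier results of these data known. Figures were drawn with Python 3.11.15 and matplotlib 3.10.9.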

Additional observations from a re-analysis of the deposited data

Results flagged for a closer look

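Dixon's ratio, the gap between an outermost mouse and the next one as a share of the whole spread in its group, was computed for the 10 members and 8 ratios in both groups of mice. It passed the critical value of 0.71 in 4 of 36 such sets of 5 values. Chance gives about 1 in 20, or 1.8. Sham replicate 4 was the lowest sham mouse in Ctnna3 (ratio 0.741) and in Tjp1 (0.773), and the highest in the Pkp2 to Dsp ratio (0.868). In the same library the log2 difference from the other sham mice was -0.76 for Dsp, with a transcript of 9592 bases, -0.96 for Tjp1, with 7049 bases, and -1.04 for Ctnna3, with 3682 bases. For Jup, with 3205 bases, it was 0.03. The part of transcript length in these values was not tested. Sham replicate 5 was the highest sham mouse in Pkp2 (ratio 0.720), at 48.4 FPKM.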

How the results depend on the processing

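Dsg2 passed as lower in every alternative run, and also at an adjusted p below 0.01 in deposited FPKM. Its log2 FC was between -0.98 and -0.79 when single mice were left out, and it was a DEG (1 member in place of 0) with median-ratio scaling, with upper-quartile scaling and with GC content and length trends removed. The number of members that passed was 1, and 2 in 5 alternatives. With median-ratio scaling, upper-quartile scaling and the trends removed, Cdh2 was the second, at -0.51, -0.50 and -0.50. In TPM and centered on cardiomyocyte markers Pkp2 was, at 0.50 and 0.42. With single mice left out the number was from 1 to 3, the highest without sham replicate 5, where Pkp2 and Jup passed, and the number of DEGs was 0 throughout.

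Log2 FCs near 0 changed sign with the scaling. With median-ratio scaling, upper-quartile scaling and trends removed, that of Dsp was -0.13, -0.12 and -0.22, that of Jup -0.024, -0.011 and -0.19, and that of Tjp1 -0.22, -0.21 and -0.19. In TPM, Gja1 was at 0.040, Gja5 at 0.12, Ctnna3 at 0.085, Dsc2 at 0.14 and Gjc1 at 0.10. Centered on cardiomyocyte markers, Gja5 was at 0.083, Ctnna3 at 0.027, Dsc2 at 0.071 and Gjc1 at 0.034, and with Xist as a covariate Gja5 was at 0.00045 and Dsc2 at 0.027. None of these passed in the settings named. Gjc1 passed as lower with median-ratio and upper-quartile scaling, at -0.32 and -0.30, as did Ctnna1, at -0.56 and -0.55. With single mice left out, the ranges were -0.10 to 0.074 for Gja5, -0.28 to 0.0082 for Ctnna3, -0.0034 to 0.25 for Dsp, -0.11 to 0.035 for Dsc2, -0.15 to 0.13 for Tjp1, 0.28 to 0.41 for Pkp2 and 0.17 to 0.38 for Jup.

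Of the ratios, Gja5 to Gja1 was between -0.085 and 0.30 and Ctnna3 to Ctnna1 between -0.0047 and 0.32 with single mice left out, Pkp2 to Dsp between 0.15 and 0.29, and Dsc2 to Dsg2 between 0.88 and 0.95. Without sham replicate 4 those of Dsc2 to Dsg2 and Pkp2 to Dsp, at 0.94 and 0.29, passed with an exact permutation adjusted p of 0.0423.

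Over all 11867 genes 3757 passed, 1983 with Xist as a covariate and 2132 at an adjusted p below 0.01. In TPM 5687 passed, but of 12954 genes, since the filter there was a mean TPM of 1. Of the other junction genes 17 passed, 27 in TPM and 11 with Xist, and with trends removed 9 passed as higher and 13 as lower. With single mice left out the numbers that passed were 2899 to 4551 genes and 13 to 20 junction genes. Median-ratio scaling gave 13.2% higher and 12.1% lower in place of 27.1% and 4.60%. The replicate numbers did not pair the mice, with correlations of same-numbered deviations from -0.32 to 0.19, and with the replicate block 3426 genes, 1 member and 14 other junction genes passed. The cause of these dependences was not tested.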

Other observations

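Krt8 and Krt18, keratin genes whose filaments desmosomes anchor in epithelia, were higher in nAAC mice, and both were singled out after their values were seen. Krt18 was at 6.29, 7.78, 14.0, 5.17 and 3.70 FPKM in nAAC replicates 1 to 5 and at 0.579, 0.438, 0.360, 0.999 and 1.11 in sham replicates 1 to 5. The log2 FC of 2.21 had a standard error of 0.26 (limma adjusted p = 3.59e-05). Krt8, its usual partner, was at 2.83, 2.36, 2.84, 1.46 and 0.897 FPKM in nAAC and at 0.0687, 0.0778, 0.310, 0.599 and 0.230 in sham replicates 1 to 5. The log2 FC of 1.26 had a standard error of 0.20 (limma adjusted p = 4.23e-04). In both genes every nAAC mouse was above every sham mouse. Both were DEGs, while the other 5 tested members of the list of epicardial and epithelial markers, Upk3b, Upk1b, Msln, Wt1 and Krt19, did not pass, and Epcam was at 0.033 FPKM or less in all mice.

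Of 7 tested genes within 1 megabase of Dsg2, 1 passed as higher and 0 as lower, and their median log2 FC was 0.16. Around Cdh2, 2 genes were tested and 1 passed as higher.

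Among markers of other cells of the LV, 5 of 8 mural genes passed as higher, as did 2 of 8 endothelial genes and 2 of 7 tested macrophage and leukocyte genes. Of all genes tested 27.1% passed as higher. None of these markers passed as lower in deposited FPKM. After median-ratio scaling 3 mural, 1 endothelial and 1 macrophage and leukocyte gene passed as higher, against 13.2% of all genes, and 1 mural gene passed as lower. Of 5 erythroid genes 0 passed in limma, and 0 had an unadjusted p below 0.05.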
